A study of Mus musculus with 8 samples.

Results

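The genes described here are 9 members and regulators of the epidermal growth factor (EGF) family, taken by name from a table of 39527 genes. They are the ligands Areg, Hbegf, Tgfa, Btc and Ereg, the receptor Egfr, the receptor's feedback inhibitor Errfi1 and the sheddases Adam17 and Adam10. All 9 names were found, each on a single row. RNA came from group 2 innate lymphoid cells (ILC2s) sorted out of the epididymal visceral fat of male wild-type C57BL/6 mice aged 14 weeks. The mice had eaten a normal diet (libraries N1 to N4) or a high-fat diet (H1 to H4) for 8 weeks from the age of 6 weeks. Whether each library stands for 1 animal or for a pool is not stated in the labels, nor is the sort gate, so the spread between libraries may be technical in part.

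EGF family ligands are made as membrane-anchored precursors, and metalloproteases of the ADAM family cut them from the cell surface. ADAM17 is the main sheddase of amphiregulin, heparin-binding EGF-like growth factor, epiregulin and transforming growth factor alpha, and ADAM10 that of betacellulin and EGF. The freed ligands bind the receptor tyrosine kinase EGFR on neighbouring cells or on the cell that made them, and ERRFI1 (also called MIG6) binds the active kinase and restrains it. ILC2s are known as a source of amphiregulin, which acts on epithelial and stromal cells in tissue repair.

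Recovered reads came to 7767805 to 13586768 per library. H2 stood apart: it had the fewest reads, the most genes at 1 FPKM or more (13663 against 10763 to 11905 in the other libraries) and the highest value of any library for 49.6% of 12882 genes with a median below 1 FPKM. FPKM are fragments scaled to gene length and to library depth, so levels can be compared between genes within the accuracy of the gene lengths used. The ILC2 markers Gata3, Il1rl1, Klrg1, Il7r, Rora, Id2, Thy1, Il5, Il13, Il2ra and Ptprc were above 0 in every library. The high-fat libraries had the lower sums of these markers, 6041 to 6652 FPKM, and the normal-diet libraries 7645 to 9454 FPKM, without overlap. Gata3, Il5 and Il2ra were called lower (3 of 11, where 2.86% of all tested genes were called). The diets did not overlap for 5 of 11, where 11.1% of all tested genes did not. Of these 5, Gata3, Il5, Il2ra and Rora were lower, and Il7r was higher, at 203 to 272 FPKM against 150 to 199 FPKM. Id2 and Rora, the largest parts of the sum, were not called, and Id2 overlapped. Mast cell and basophil markers were also abundant, with all 8 listed genes tested and a summed level of 3761 to 8004 FPKM on the normal diet and 1723 to 7868 FPKM on the high-fat diet, lowest in H2. No gene of that list passed the test, and the part of such cells in the levels below was not tested. In such bulk libraries fewer cells of a type and less RNA per cell cannot be told apart.

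Promoter sequences are shown for Areg, the most abundant ligand, and for Errfi1, the only one of the 9 genes called between the diets. RefSeq (GRCm38.p6) gave 8 promoter windows for 7 of the 9 genes and none for Hbegf and Ereg. Each sequence below is the 250 bases before a transcription start, on the strand of the gene. Capitals mark the cyclic AMP response element TGACGTCA and the TATA box TATAAA. The Areg window is chr5:91139349-91139598 on the plus strand. Errfi1 has a pair of annotated starts, and its windows are chr4:150853546-150853795 and chr4:150854820-150855069, both on the plus strand. The later window lies in an intron of the longest transcript.
Areg: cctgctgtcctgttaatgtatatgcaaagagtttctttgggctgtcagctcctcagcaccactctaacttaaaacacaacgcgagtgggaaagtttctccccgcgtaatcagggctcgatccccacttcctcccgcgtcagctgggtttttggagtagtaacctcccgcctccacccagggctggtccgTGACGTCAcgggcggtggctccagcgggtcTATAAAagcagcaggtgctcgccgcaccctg
Errfi1, later start: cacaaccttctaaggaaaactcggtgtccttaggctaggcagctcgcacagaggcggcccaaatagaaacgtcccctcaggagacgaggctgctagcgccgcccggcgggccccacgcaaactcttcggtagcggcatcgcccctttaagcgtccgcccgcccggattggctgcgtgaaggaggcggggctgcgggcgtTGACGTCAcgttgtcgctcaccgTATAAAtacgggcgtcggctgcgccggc
Errfi1, earlier start: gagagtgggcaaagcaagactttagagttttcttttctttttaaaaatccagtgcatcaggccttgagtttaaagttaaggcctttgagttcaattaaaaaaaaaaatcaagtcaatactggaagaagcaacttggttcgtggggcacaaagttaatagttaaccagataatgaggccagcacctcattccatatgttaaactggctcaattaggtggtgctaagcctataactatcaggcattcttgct

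The later Errfi1 window and the Areg window both held TGACGTCA and TATAAA. In Areg the response element covered bases 61 to 54 before the start and the TATA box bases 31 to 26, and in Errfi1 these were bases 51 to 44 and 28 to 23. Both strands were searched in all 32851 RefSeq windows of this length. TGACGTCA was in 1.55% of them, TATAAA in 12.4%, and both in 39 windows (0.119%). The earlier Errfi1 window and those of Btc, Tgfa, Egfr, Adam10 and Adam17 held neither. The motif TGANTCA (AP-1) was in none of the 8 windows and in 6.75% of all, and GCGTGGGCG (EGR) in none of the 8 and 0.536% of all. The shorter motif TGACG, which is part of TGACGTCA, was in 4 of the 8 windows and in 17.8% of all. GGGCGG, the GC box, was in 6 of the 8 and 32.7% of all. The motifs were chosen with the values of these genes known, and a match in sequence is no evidence of a bound factor.

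Errfi1 fell on the high-fat diet, and the ligands, the sheddases and the receptor gave no call. Errfi1 stood at 66.4, 97.6, 67.4 and 62.4 FPKM in N1 to N4 and at 28.2, 33.0, 28.1 and 32.8 FPKM in H1 to H4. The lowest normal-diet library was thus above the highest high-fat library, and the high-fat libraries lay close together. The means were 73.4 ± 16.3 and 30.5 ± 2.74 FPKM (SD, n = 4 each), a 2.41-fold lower mean on the high-fat diet. On the log2(FPKM + 1) scale, on which all fold changes below are given, the difference was -1.22 ± 0.16 (SE; limma, Benjamini-Hochberg adjusted p = 0.00212). Of the 9 genes 6 were tested, 1 fell, none rose and 5 did not pass, with a median fold change of -0.06 against -0.02 over all tested genes. Of 11483 tested genes 328 (2.86%) passed, 216 of them lower on the high-fat diet (1.88%) and 112 higher (0.975%), and Errfi1 had the 11th lowest p. N2 was the high library among the normal-diet group, and without it the fold change was -1.08 (limma, adjusted p = 0.00587). The summed ILC2 markers were lower on the high-fat diet as well, and their part in the Errfi1 difference was not tested. The Errfi1 call held in all 19 other settings, with fold changes of -1.29 to -1.08 and adjusted p of 7.78e-05 to 0.0170.

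Errfi1 (ENSMUSG00000028967) lies on chromosome 4, 150853919 to 150868892 on the plus strand in mm10, in 6 blocks of exons. The antisense gene 1700045H11Rik overlaps it and was deposited at no more than 1.45 FPKM. The libraries do not mark strand, so reads of the pair cannot be told apart. Between 910 and 3232 reads per library lay behind the Errfi1 values. By level it was the 1799th of the tested genes. Of 5419 named genes with a mean of at least 10 FPKM, the 3 with the profile nearest to that of Errfi1 over the 8 libraries were Zbtb46, Srxn1 and Muc1. Centred on its own mean, each differed from Errfi1 by a root mean square of 0.13 to 0.14 on the log2 scale, where Errfi1 itself varied by 0.64. Their fold changes, which the choice by likeness fixes, were -1.34 for Zbtb46, a transcription factor of classical dendritic cells and of some innate lymphoid cells, -1.28 for Srxn1, which repairs oxidised peroxiredoxins, and -1.18 for Muc1, a cell-surface mucin.

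**Figure D1:**
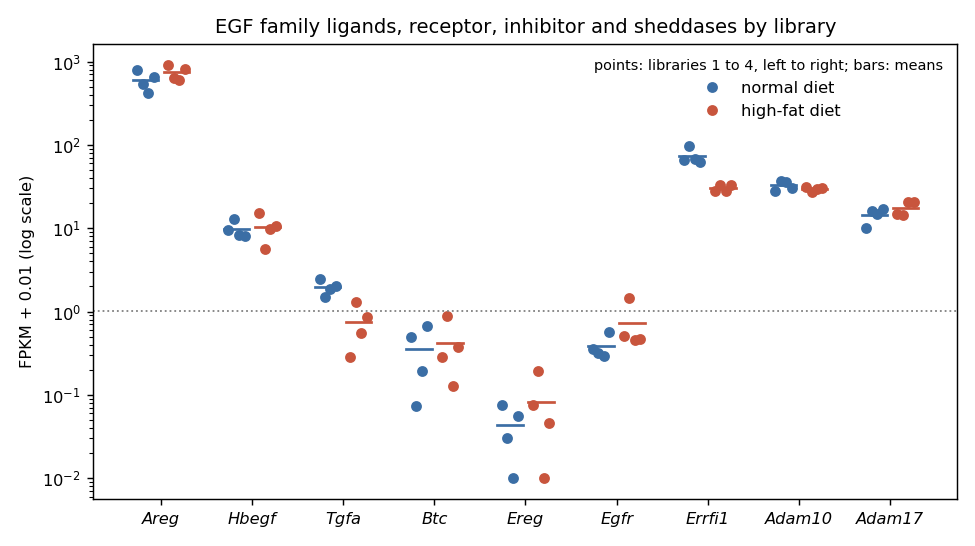
FPKM plus 0.01 on a log axis for the 9 genes in each library, with normal-diet libraries in blue, high-fat libraries in red and bars at the group means; the dotted line marks 1 FPKM. Areg sits at 420 to 918 FPKM in all libraries, Errfi1 parts the diets (62.4 to 97.6 against 28.1 to 33.0 FPKM), and Btc, Ereg and Egfr lie under 1 FPKM except for Egfr in H2.

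Among the ligands, Areg made up nearly all of the message on both diets. Its levels were 788, 539, 420 and 655 FPKM in N1 to N4 and 918, 640, 604 and 813 FPKM in H1 to H4. The groups overlapped, with H2 and H3 inside the range of the normal-diet libraries. The means were 600 ± 157 and 744 ± 148 FPKM (SD, n = 4 each), and the gene ranked 138th of 11483 by level. The log2 fold change of 0.33 (95% confidence interval -0.10 to 0.75) did not pass (limma, adjusted p = 0.417). T cell markers, which T cells that also make Areg would bring, summed to 783 to 1062 FPKM on the normal diet and 839 to 1624 FPKM on the high-fat diet. Most of the sum was Trbc1, Trbc2, Cd3g and Trac. Means of Cd3d, Cd3e, Cd4, Cd5 and Foxp3 were 4.28 to 6.26 FPKM on the normal diet and 8.33 to 11.7 FPKM on the high-fat diet, each with overlap. None of the 10 tested T cell markers was called, and the part of T cells in the Areg level was not tested. Summed over 7 ligands of EGFR (the 5 above with Egf and Epgn), Areg held 97.2% to 98.5% of the FPKM in every library, and Hbegf 0.872% to 2.32%. Recovered reads put Areg on 7020 to 13704 reads per library, where counting error is at most 1.19% of the level and the libraries of a diet vary by 19.9% and 26.2% (CV). The genes with profiles nearest to Areg were Clta, a clathrin light chain, Bcl11b, a transcription factor of T cells and ILC2s, and Rp9, with root mean square differences of 0.08 to 0.13, against 0.34 for Areg about its own mean.

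The call on Areg depended on how libraries were scaled. On recovered reads scaled by their totals, a setting chosen after seeing the data, Areg was higher by 0.57 on the high-fat diet (limma-voom, adjusted p = 0.00853). That scaling moved the median of all genes to 0.16, and at the deposited scaling the same reads gave 0.41 (limma-voom, adjusted p = 0.0891). Over all 19 other settings the adjusted p ran from 0.00853 to 0.722, and only the totals setting passed.

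Areg (ENSMUSG00000029378) lies on chromosome 5, 91139599 to 91148432 on the plus strand in mm10, with 6 exons in 1 annotated transcript. It sits in a cluster of EGF family genes that spans 376 kb. Epgn, the epithelial mitogen gene, starts the cluster and was at 0 to 0.252 FPKM. Ereg follows 39.4 kb on, and Areg starts 46.0 kb beyond the end of Ereg. Btc lies 209 kb past Areg on the minus strand. Areg was thus the only gene of the 4 that reached 1 FPKM in any library.

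Hbegf, which encodes heparin-binding EGF-like growth factor, was the next most abundant ligand. It was at 9.59, 12.9, 8.36 and 8.00 FPKM in N1 to N4 and at 15.1, 5.67, 9.66 and 10.6 FPKM in H1 to H4. H1 was the highest and H2 the lowest of all 8 libraries, so that the high-fat range enclosed the normal-diet range. The log2 fold change was 0.03 (95% confidence interval -0.48 to 0.53; limma, adjusted p = 0.972), and it changed sign in 6 other settings, among them the one that leaves out H1. The gene (ENSMUSG00000024486) lies on chromosome 18, 36504927 to 36515805 on the minus strand. The profiles nearest to Hbegf were those of Dynlrb1, a dynein light chain, Naa20, a subunit of an N-terminal acetyltransferase, and Gatad2a, a subunit of the NuRD complex, at 0.10 to 0.11.

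Tgfa, which encodes transforming growth factor alpha, was low in all libraries and lower on the high-fat diet without passing. It was at 2.44, 1.48, 1.88 and 1.99 FPKM in N1 to N4 and at 0.275, 1.29, 0.540 and 0.855 FPKM in H1 to H4. The groups did not overlap, though N2 and H2 were close to each other. Of all tested genes 11.1% did not overlap between the diets, and among the 6 tested here Errfi1 and Tgfa did not. The means were 1.95 ± 0.395 and 0.740 ± 0.437 FPKM, and the fold change was -0.78 ± 0.24 (SE; limma, adjusted p = 0.0964). Tgfa entered the test through the 4 normal-diet libraries and H2, the ones that reached 1 FPKM. Behind the values stood 72 to 94 reads per normal-diet library and 13 to 47 per high-fat library. Without H2 the fold change was -0.93 (limma, adjusted p = 0.0365), and 5 of 18 other settings passed. The gene (ENSMUSG00000029999) is on chromosome 6, 86195223 to 86275719 on the plus strand.

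Btc (betacellulin) and Ereg (epiregulin) were at the limit of detection and were not tested. Btc was at 0.483, 0.0644, 0.184 and 0.655 FPKM in N1 to N4 and at 0.272, 0.872, 0.116 and 0.362 FPKM in H1 to H4, from 2 to 23 reads per library. Its highest value was in H2 and the groups overlapped. Ereg was at 0 FPKM in H3 and N3 and at no more than 0.184 FPKM elsewhere, again highest in H2. It had 0 to 7 reads per library, where 3 reads correspond to 0.0499 to 0.0788 FPKM. A difference between the diets was not detectable for either gene at this depth.

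The receptor was barely present. Egfr was at 0.346, 0.309, 0.281 and 0.565 FPKM in N1 to N4 and at 0.493, 1.47, 0.450 and 0.462 FPKM in H1 to H4. H2 was set apart from the other high-fat libraries, which lay inside the normal-diet range. With 7 to 32 reads per library and only H2 at 1 FPKM, Egfr did not enter the test. Of 10 family genes with a median below 1 FPKM, 8 were highest in H2 (Ereg, Btc, Egfr, Egf, Nrg1, Nrg2, Nrg3 and Erbb4), as were 49.6% of all genes so low. Markers of stromal, mesothelial and adipocyte cells, which can carry Egfr, were summed over 12 genes. The sums were 4.29 to 10.4 FPKM on the normal diet and 8.09 to 37.6 FPKM on the high-fat diet, highest in H4. Dcn, Col1a1, Col1a2 and Col3a1 were highest in H4, and Pdgfra, Msln, Upk3b, Krt19 and Plin1 in H2. Pdgfrb was highest in H1, Wt1 in N2 and Adipoq in N1. The part of such cells in the Egfr values was not tested. The gene (ENSMUSG00000020122) lies on chromosome 11, 16752203 to 16918158 on the plus strand. The length behind its values came out as 2264 bases, where GENCODE M21 gives 11326 exonic bases, so its level relative to other genes is less certain than its levels across libraries. For Areg these lengths were 1212 and 1215, for Hbegf 2343 and 4834, and for Errfi1 3043.5 and 3582 bases.

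The sheddases were present at moderate levels on both diets. Adam10 was at 27.9, 37.3, 36.2 and 30.0 FPKM in N1 to N4 and at 31.0, 27.0, 29.2 and 30.6 FPKM in H1 to H4. Adam17 was at 10.02, 15.9, 14.7 and 17.1 FPKM in N1 to N4 and at 14.7, 14.3, 20.7 and 20.7 FPKM in H1 to H4. Both genes overlapped between the diets, and Adam10 exceeded Adam17 in each of the 8 libraries, by 1.41 to 2.79 times. The log2 fold change was -0.14 for Adam10 (95% confidence interval -0.45 to 0.16; limma, adjusted p = 0.655) and 0.27 for Adam17 (-0.13 to 0.67; limma, adjusted p = 0.482). Adam10 (ENSMUSG00000054693) is on chromosome 9, 70678997 to 70780229 on the plus strand, and Adam17 (ENSMUSG00000052593) on chromosome 12, 21323509 to 21373632 on the minus strand. The gene Iah1 overlaps Adam17 on the other strand and reached 20.5 FPKM, so without strand some reads of this pair cannot be told apart.

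**Figure D2:**
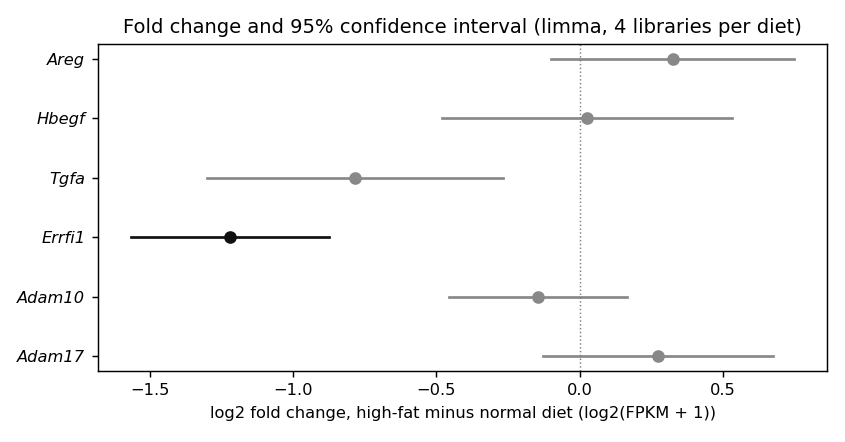
Log2 fold changes, high-fat minus normal diet, with 95% confidence intervals for the 6 genes that entered the test, 4 libraries per diet; black marks an adjusted p below 0.05 (limma). Errfi1 alone is black, at -1.22, and the intervals of Areg, Hbegf, Adam10 and Adam17 include 0.

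Ratios within a library, which do not depend on how whole libraries are scaled apart from the pseudocount, set the ligand beside other ILC2 products. The ratio of Areg to Il5, the eosinophil growth factor, was 1.07, 0.589, 0.552 and 0.921 in N1 to N4 and 5.91, 2.46, 3.68 and 4.56 in H1 to H4. Every high-fat library was above every normal-diet library, and the mean log2 ratio rose from -0.41 ± 0.47 to 1.98 ± 0.53 (SD, n = 4 each), a difference of 2.39 that did not survive correction (exact permutation test, two-sided, p = 0.0286, the smallest that 4 against 4 allows, and adjusted p = 0.114 over 4 ratios). Most of the 2.39 lay in Il5, which went from 780 ± 92.7 to 189 ± 48.1 FPKM. Its fold change was -2.06 (limma, adjusted p = 7.63e-05), with the lowest p of all tested genes. That of Areg was 0.33, without a call. Il5 was already known to be lower on the high-fat diet when this ratio was chosen. Areg to Il13, which encodes a cytokine that acts on goblet cells and macrophages, differed by 0.55 with overlap (exact permutation p = 0.0857, adjusted p = 0.114). Hbegf to Areg differed by -0.30 (exact permutation p = 0.371, adjusted p = 0.371). Adam10 to Adam17 differed by -0.42, and the only overlap came from N4, at 0.77 against 0.48 to 1.02 on the high-fat diet (exact permutation p = 0.0857, adjusted p = 0.114).

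**Figure D3:**
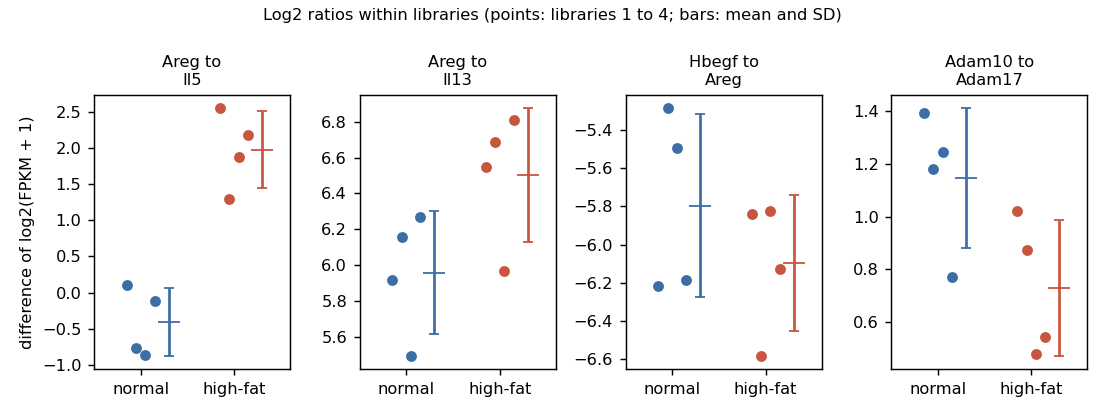
Log2 ratios of 4 gene pairs within each library, as differences of log2(FPKM + 1), with normal-diet libraries in blue and high-fat libraries in red, and bars for the mean and SD. Areg to Il5 parts the diets, at -0.86 to 0.10 against 1.296 to 2.56, and the other pairs overlap.

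Among the partners of shedding Furin fell. Of 20 listed genes for sheddase partners, precursor maturation and inhibition 16 were tested, 1 fell (6.25% called, against 2.86% of all tested genes), none rose and 15 did not pass, with a median log2 fold change of 0.06 against -0.02 over all tested genes. The gene called was Furin, the proprotein convertase that activates ADAM precursors, at 727, 777, 555 and 707 FPKM in N1 to N4 and 394, 431, 394 and 413 FPKM in H1 to H4. The diets did not overlap, and the fold change was -0.75 (limma, adjusted p = 0.0119, and 0.0512 without H3). Adam8, the next most abundant, was at 36.7 ± 3.53 and 33.9 ± 7.35 FPKM. The iRhoms, which carry ADAM17 to the surface, were chosen for mention after their values were seen. Rhbdf1 was at 1.45 to 3.22 FPKM in the normal-diet libraries and 0.648 to 1.13 FPKM in the high-fat libraries (-0.68, limma, adjusted p = 0.124), and Rhbdf2, in the same order, at 1.82 to 3.36 and 2.91 to 4.36 FPKM (0.40, limma, adjusted p = 0.309). Timp3, an inhibitor of ADAM17 also chosen after its values were seen, lay under the filter. It was at 0.0775 to 0.251 FPKM on the normal diet and at 3.71, 0.354, 3.53 and 7.92 FPKM in H1 to H4, where endothelial markers summed to 137, 26.9, 87.4 and 96.9 FPKM against 15.1 to 20.7 FPKM on the normal diet. Fabp4 alone held 104, 9.68, 62.5 and 68.9 FPKM of these sums in H1 to H4. On the normal diet it was at 0.788 to 1.81 FPKM. Fabp4 was called higher (limma, adjusted p = 0.0270), and Pecam1 and Emcn overlapped without a call (limma, adjusted p = 0.369 and 0.0974). Cdh5, Kdr, Tek and Egfl7, under the filter at no more than 2.88 FPKM, were higher on the high-fat diet without overlap. The gap was narrow for Cdh5, at 0.0241 to 0.315 FPKM on the normal diet and 0.333 to 0.416 on the high-fat diet. The share of all genes under the filter without overlap was not counted. The part of endothelial or stromal cells in Timp3 was not tested.

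The other ligands and the other ERBB receptors were near absent. Of 9 listed genes only Nrg4, a neuregulin of adipose tissue, and Erbb3, a receptor of neuregulins, entered the test. In normal-diet and then high-fat libraries Nrg4 was at 1.29 to 2.69 and 0.883 to 3.93 FPKM and Erbb3 at 0.734 to 1.52 and 0.840 to 2.65 FPKM. Neither passed (limma, adjusted p = 0.967 and 0.805). The remaining genes of that list, Erbb2 and Erbb4 among them, reached no more than 2.16 FPKM in any library.

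No listed gene of receptor feedback and trafficking was called, and Gab2 and Braf fell among the downstream genes. Of 23 listed feedback and trafficking genes 20 were tested and none passed, 10 with a fold change below 0 and 10 above, and a median of -0.01 (limma). The most abundant were Rab7, a GTPase of late endosomes, at 224 ± 44.7 and 187 ± 46.6 FPKM, and Ptpn2, a phosphatase, at 109 ± 17.5 and 89.0 ± 13.9 FPKM. Of 23 genes from the receptor to ERK 19 were tested, 2 fell (10.5% called, against 2.86% of all tested genes), none rose and 17 did not pass, with a median of -0.10. Gab2, a docking adaptor, was at 22.1, 23.9, 19.8 and 17.8 FPKM in N1 to N4 and at 12.9, 8.33, 8.87 and 10.6 FPKM in H1 to H4 (-0.98, limma, adjusted p = 0.00650). Braf, a kinase upstream of ERK, was at 32.3, 37.5, 23.7 and 27.4 FPKM and at 15.8, 14.4, 17.2 and 17.3 FPKM (-0.84, limma, adjusted p = 0.0115, and 0.0512 with the replicate block). Neither gene overlapped between the diets. The most abundant of the list were Nras, a RAS GTPase, at 118 ± 20.2 and 89.7 ± 13.0 FPKM, and Dusp5, a nuclear ERK phosphatase, at 111 ± 37.1 and 72.3 ± 22.5 FPKM, without a call (limma, adjusted p = 0.212 and 0.234).

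A list of receptors and factors that may act on Areg in lymphocytes gave 3 calls among 25 tested genes. Of the 25, 12% were called, against 2.86% of all tested genes, with 1 higher, 2 lower and 22 not passing. The median was -0.26 against -0.02 over all tested genes. Il2ra, the high-affinity interleukin-2 receptor chain, went from 338 ± 33.3 to 205 ± 22.7 FPKM (-0.72, limma, adjusted p = 0.0152). Gata3, the transcription factor of ILC2 identity, fell by 0.59 (limma, adjusted p = 0.0449), a call that held in 7 of 19 other settings. Il2ra and Gata3 were also counted among the 3 called ILC2 markers, so the counts of these lists are not independent. Calcrl, through which the neuropeptide CGRP acts and which is also found on endothelium, was at 3.71 to 6.96 FPKM on the normal diet and 10.01 to 15.4 FPKM on the high-fat diet (0.94, limma, adjusted p = 0.0175). The summed endothelial markers were higher as well, with Fabp4 their only call, as given with Timp3. Most of the sum in H1, H3 and H4 was Fabp4, and the markers Pecam1 and Emcn overlapped between the diets. The part of such cells in Calcrl was not tested. The call of Il2ra ended without H3 or N1 (limma, adjusted p up to 0.0711), and the Calcrl call with no filter or on leaving out H1, H3 or N2 (up to 0.0725). Zfp36, which destabilises mRNAs with AU-rich ends, and Rora, a nuclear receptor required for ILC2s, were the most abundant, at 2677 ± 379 and 2719 ± 295 FPKM and at 2306 ± 289 and 1640 ± 91.7 FPKM, and did not pass (limma, adjusted p = 0.952 and 0.0749). Crem and Creb1, which encode factors that bind the cyclic AMP response element and were chosen after their values were seen, did not pass either. Crem was at 1421 ± 166 and 1086 ± 191 FPKM (-0.40, limma, adjusted p = 0.193) and Creb1 at 21.6 ± 0.835 and 17.9 ± 2.14 FPKM (-0.27, limma, adjusted p = 0.337).

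**Figure D4:**
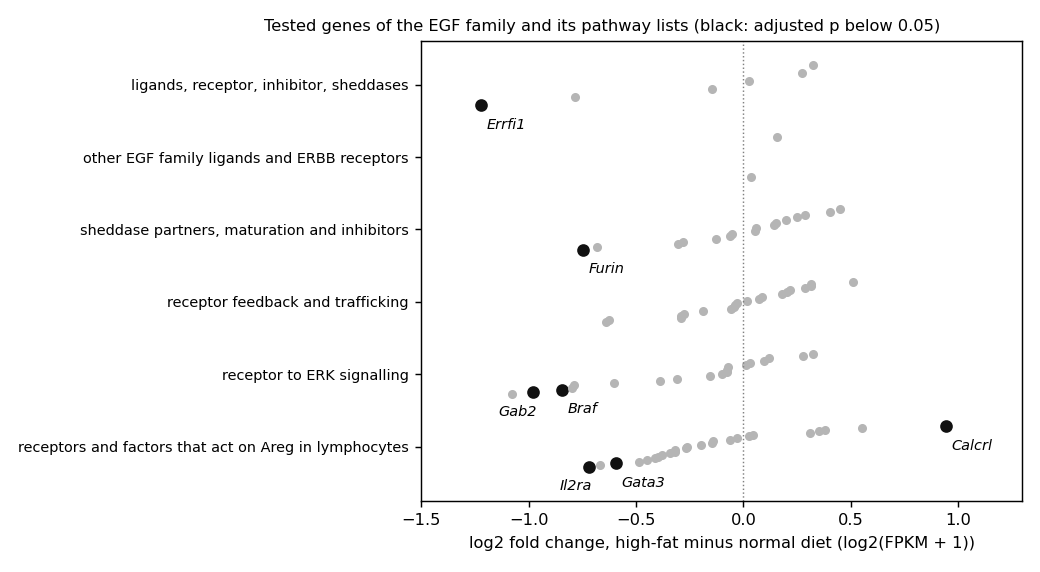
Log2 fold changes, high-fat minus normal diet, of all tested genes in the EGF family and in 5 lists of its pathway, 1 point per gene; black points with names had an adjusted p below 0.05 (limma). Errfi1 lies farthest below 0 at -1.22, Calcrl is the only named gene above 0, and the lists of other family genes and of receptor feedback have no black point.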

How the data were processed

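RNA was measured in 8 libraries of sorted ILC2s, 4 per diet. Per the labels' protocols, full-length cDNA came from a SMART-Seq HT reaction and was made into libraries with a TruePrep transposase kit, which does not mark strand. HISAT2, Cufflinks and the build mm10 are listed in the submitters' processing notes, without versions. Per the file headers, values were deposited as FPKM, for 39527 genes. Of these 14605 have values below 0 and were left out. None of the genes described here is among them.

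Within a library the deposited value of 1 read carries a factor of 0.863 to 1.18 that repeats every 10 genes in identifier order. It was kept in the main test and divided out in an alternative. With it, whole reads were recovered for 100% of 24107 genes above 0. Lengths were searched in steps of 0.5 bases, and 3249 genes came out with a length that is not whole. A gene with few reads can come out too low where its reads share a divisor.

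Genes at 1 FPKM or more in at least 4 libraries were tested (11483). limma 3.58.1 in R 4.3.3 was fitted to log2(FPKM + 1) with diet as the only term (trend and robust options), two-sided, with Benjamini-Hochberg adjustment over all tested genes at 0.05. Gene ratios were tested by exact permutation over the 70 arrangements of the libraries. The scripts were tested on simulated data. The genes, lists, ratios and motifs were chosen with earlier results of these data known. Named genes are the 9, up to 4 called genes and the 2 most abundant of each list, the ratio partners and the 3 nearest profiles of Areg, Hbegf and Errfi1. Others are said to be chosen after their values were seen. Gene coordinates are from GENCODE M21. DESeq2 and edgeR were not used, since the deposited values are not counts. Intervals from reads cover counting error only.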

Additional observations from a re-analysis of the deposited data

Results flagged for a closer look

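In 2 of the 18 groups of 4 libraries examined (9 genes on 2 diets), 1 library lay far from the other 3 by Dixon's criterion at the 95% level. Chance flags about 1 group in 20. Errfi1 in N2 was at 97.6 FPKM, with the other normal-diet libraries at 62.4 to 67.4 FPKM. Egfr in H2 was at 1.47 FPKM, with the other high-fat libraries at 0.450 to 0.493 FPKM.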

How the results depend on the processing

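The count of 328 called genes (112 higher, 216 lower) came to 130 with no filter, 571 with the repeating factor divided out, 191 with the replicate block and 129 to 536 without each library in turn. On recovered reads it was 751 at the deposited scaling and 1441 at total reads, settings added after seeing the data. The direction split depended on the scaling, with 226 higher and 204 lower under quantile normalization and 1056 higher and 385 lower at total reads. Without H2 and N2 together it was 242 and 216.

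Errfi1 kept its call in all 19 alternatives (-1.29 to -1.08). Areg passed at 0.57 on total reads only, and spanned 0.17 (without N3) to 0.47 (without N1) when a library was left out. Tgfa passed at -0.91 under quantile normalization, -1.58 and -1.69 on recovered reads at total and deposited scaling, -1.01 without H2 and N2, and without H2, in a range of -0.93 to -0.65 over single libraries left out. Hbegf, never called, was at -0.040 with the factor divided out, -0.021 on recovered reads at the deposited scaling, 0.387 without H2 and N2 and -0.17 to 0.25 without each library in turn. Adam10, never called, was at 0.042 on total reads. The cause of these shifts was not tested. Adam17 stayed without a call in every alternative. The 4 ratios did so too, but their tests could hardly have passed. The smallest exact permutation p was 0.125 with the replicate block and 0.0286 elsewhere. A single ratio at 0.0286 adjusted to 0.114, or to 0.0857 with the repeating factor divided out. Of the pathway calls, Gab2 alone held in all 19 alternatives. Furin and Braf held in 18, Il2ra in 17, Calcrl in 15 and Gata3 in 7. With the replicate block Braf (limma, adjusted p = 0.0512) and Gata3 ended.

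Same-numbered libraries of the diets did not deviate together (correlations of -0.25 to 0.08 across genes, none the best match of its library), so the numbers were not taken as pairs. With the replicate block Errfi1 had adjusted p = 0.0106 (limma). The alternatives with DESeq2 and edgeR were not run, and limma-voom on recovered reads took their place. At 5 FPKM Tgfa left the test. Depth limits Btc, Ereg and Egfr, at no more than 32 reads per library.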
